A study of Rattus norvegicus with 4 samples.

Results

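Slit1, Slit2 and Slit3 encode secreted ligands, and Robo1, Robo2, Robo3 and Robo4 encode the receptors of the same guidance pathway. These 7 genes, found by symbol among 32883 genes in the files, were followed through nuclei of 2 rat fat depots. The family was chosen by measured values of these data, the Slit2 level of all nuclei and of adipocytes in the 2 depots, so the Slit2 difference between the tissues is a description here. Nuclear RNA was counted in 2 libraries of thoracic aorta perivascular adipose tissue (taPVAT), the fat that wraps the upper aorta, and in 2 libraries of subscapular brown adipose tissue (BAT), a classical heat-producing depot. All 4 libraries came from snap-frozen tissue of male SS/HsdMcwiCrl rats, a Dahl salt-sensitive strain, aged 16 weeks and kept on a Teklad global feed, and the labels give no treatment. The labels do not say how many rats gave a library or whether a rat gave both tissues, so p-values measure only the spread between these libraries, which may be technical.

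Slit proteins are large extracellular proteins with leucine-rich repeats that bind the immunoglobulin domains of Robo receptors, with heparan sulfate as a co-factor. Robo receptors have no enzyme activity of their own and recruit adaptors such as the srGAP proteins, Nck, Abl and Ena/VASP, which act on Rac, Cdc42 and the actin cytoskeleton. The pathway is best known for repelling growing axons, and it also steers vessel sprouts and migrating mesenchymal cells. Robo4 is the receptor typical of endothelium, and Robo3 is a diverged receptor known from commissural neurons. In fat, fragments of Slit2 and products of Slit3 have been described as secreted signals linked to heat production and nerve growth.

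Slit2 and Slit3 are also host genes of a microRNA. In the RefSeq annotation of GRCr8 the hairpin Mir218-1 (chr14:66922348-66922457, minus strand) lies inside Slit2 and Mir218-2 (chr10:20572523-20572632, plus strand) lies inside Slit3. Both hairpins give the same 5′ mature RNA and different 3′ arms, and these are printed because transcription of either ligand gene also reads through a copy of this microRNA. Capitals mark the seed, bases 2 to 8 of the mature RNA.
rno-miR-218a-5p: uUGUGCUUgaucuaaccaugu
rno-miR-218a-1-3p: aAACAUGGuuccgucaagcac
rno-miR-218a-2-3p: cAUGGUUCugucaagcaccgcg
The first of these has the seed UGUGCUU from both host genes, while the arms specific to Slit2 and to Slit3 carry different seeds, AACAUGG and AUGGUUC. The libraries measured the RNA of the host genes and not the mature microRNA.

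RefSeq lists 2 start sites for Robo1 and 1 for Slit3. Their windows of 300 bases, from 250 before to 50 after the start, are shown for a receptor and a ligand whose levels differed between classes below. Capitals mark matches on either strand to CCAAT and to GGGCGG, and TATAAA was searched as well and had no match in the 3 windows.
Robo1, chr11:24067706-24068005, plus strand: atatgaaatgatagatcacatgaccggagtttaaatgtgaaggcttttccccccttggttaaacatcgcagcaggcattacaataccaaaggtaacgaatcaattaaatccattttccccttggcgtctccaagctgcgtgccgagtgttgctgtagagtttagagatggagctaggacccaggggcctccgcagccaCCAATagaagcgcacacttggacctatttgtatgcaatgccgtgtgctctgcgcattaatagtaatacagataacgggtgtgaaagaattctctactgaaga
Robo1, chr11:24714445-24714744, plus strand: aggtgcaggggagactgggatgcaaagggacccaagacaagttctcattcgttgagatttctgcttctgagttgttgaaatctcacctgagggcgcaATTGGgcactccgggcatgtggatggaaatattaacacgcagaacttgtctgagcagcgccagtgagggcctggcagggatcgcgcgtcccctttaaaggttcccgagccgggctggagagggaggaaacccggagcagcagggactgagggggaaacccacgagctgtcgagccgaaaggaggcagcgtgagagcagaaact
Slit3, chr10:20075679-20075978, plus strand: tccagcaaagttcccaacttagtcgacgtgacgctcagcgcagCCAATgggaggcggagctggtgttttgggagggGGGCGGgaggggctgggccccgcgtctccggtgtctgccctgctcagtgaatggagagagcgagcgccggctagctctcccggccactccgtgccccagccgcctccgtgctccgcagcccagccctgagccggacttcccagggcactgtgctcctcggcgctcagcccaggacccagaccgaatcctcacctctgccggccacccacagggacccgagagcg
The 3 windows each hold 1 CCAAT match, and 37.5% of all 33469 promoter windows in the table hold at least 1, and the Slit3 window alone of the 3 holds a GGGCGG match, of which 33.1% of all windows have at least 1. GC content was 45.7% and 57.3% in the Robo1 windows and 69.3% in the Slit3 window, against a median of 51.7%. These matches are letters in a reference sequence, and counts from the 3′ end of the RNA do not tell the Robo1 starts apart.

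Each library held 14765 to 44637 barcodes with a total of 63654436 to 158140959 unique molecular identifiers (UMIs, the count of separate RNA molecules), and 12336 to 42979 nuclei with at least 500 detected genes were kept. In each library this was above the targeted recovery in its labels. How many of them are background droplets or hold more than 1 nucleus was not tested. Nuclei were sorted into classes by marker genes that include no Slit or Robo gene, which gave 8501 to 28276 adipocyte, 424 to 926 fibroblast, 502 to 1981 endothelial, 311 to 944 mural (smooth muscle and pericyte), 28 to 108 Schwann and 183 to 322 macrophage nuclei per library. A class is a range of marker counts: 26 to 115 fibroblast and 4 to 61 Schwann nuclei per library sat exactly at the gate of 3 markers. More nuclei lay at the other edge, a summed marker level of 10 times the library mean. Per library, 218 to 620 nuclei met the fibroblast marker count and lead but fell below that level, and 168 to 2743 did for the endothelial list. The median nucleus of each non-adipocyte class held at most 1 marker of any other non-adipocyte list, except lymphatic endothelial nuclei, which held a median of 4 to 5 endothelial markers. Adipocyte RNA was present in every class: in fibroblasts the median adipocyte marker stood at 34.0% to 58.8% of its level in adipocytes, and in endothelial nuclei at 41.8% to 59.1%. No kept nucleus in any library had 3 or more of 10 neuron markers. Pairs of libraries shared 126 to 424 barcodes, 0.853% to 1.29% of the smaller library. A level below is a gene's UMI count scaled to 1000000 UMIs of the class in that library (CPM), and fewer cells of a type and less RNA per cell cannot be told apart in sums over all nuclei.

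Slit2, a ligand, was highest in taPVAT fibroblasts. It was higher in both taPVAT libraries than in either BAT library in each of the 6 classes, though Schwann nuclei held only 24, 1, 1 and 0 of its UMIs. Adipocyte RNA was present in every class, so these differences are not independent of the adipocyte values the family was chosen by. How much of them is adipocyte RNA was not tested. Pairs of values are given as replicate 1 and replicate 2. In all kept nuclei Slit2 measured 77.5 and 74.0 CPM in taPVAT against 16.3 and 16.1 CPM in BAT, without overlap. Of 16676 genes with at least 40 UMIs, 11.8% were likewise higher in taPVAT without overlap. In fibroblasts the values were 339 and 535 CPM (761 and 529 UMIs) in taPVAT, and 17.0 and 46.5 CPM (34 and 46 UMIs) in BAT. In adipocytes they were 72.1 and 63.5 CPM in taPVAT and 16.2 and 16.8 CPM in BAT. The tissues did not overlap in either class, and 15.1% of 9548 genes in fibroblasts and 9.58% of 15508 genes in adipocytes were likewise higher in taPVAT without overlap. The BAT fibroblasts of replicate 1 were at the level of the adipocytes beside them. Fibroblast Slit2 stood at 471% and 843% of the adipocyte level in taPVAT, and at 105% and 277% in BAT. Over the 4 libraries the log2 fold change of fibroblasts over adipocytes was 1.60 ± 0.38 (SE), with BAT replicate 1 showing no clear difference. Comparisons of Slit2 with adipocytes are given without a test, because the adipocyte levels in them are among the values the family was chosen by.

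**Figure D1:**
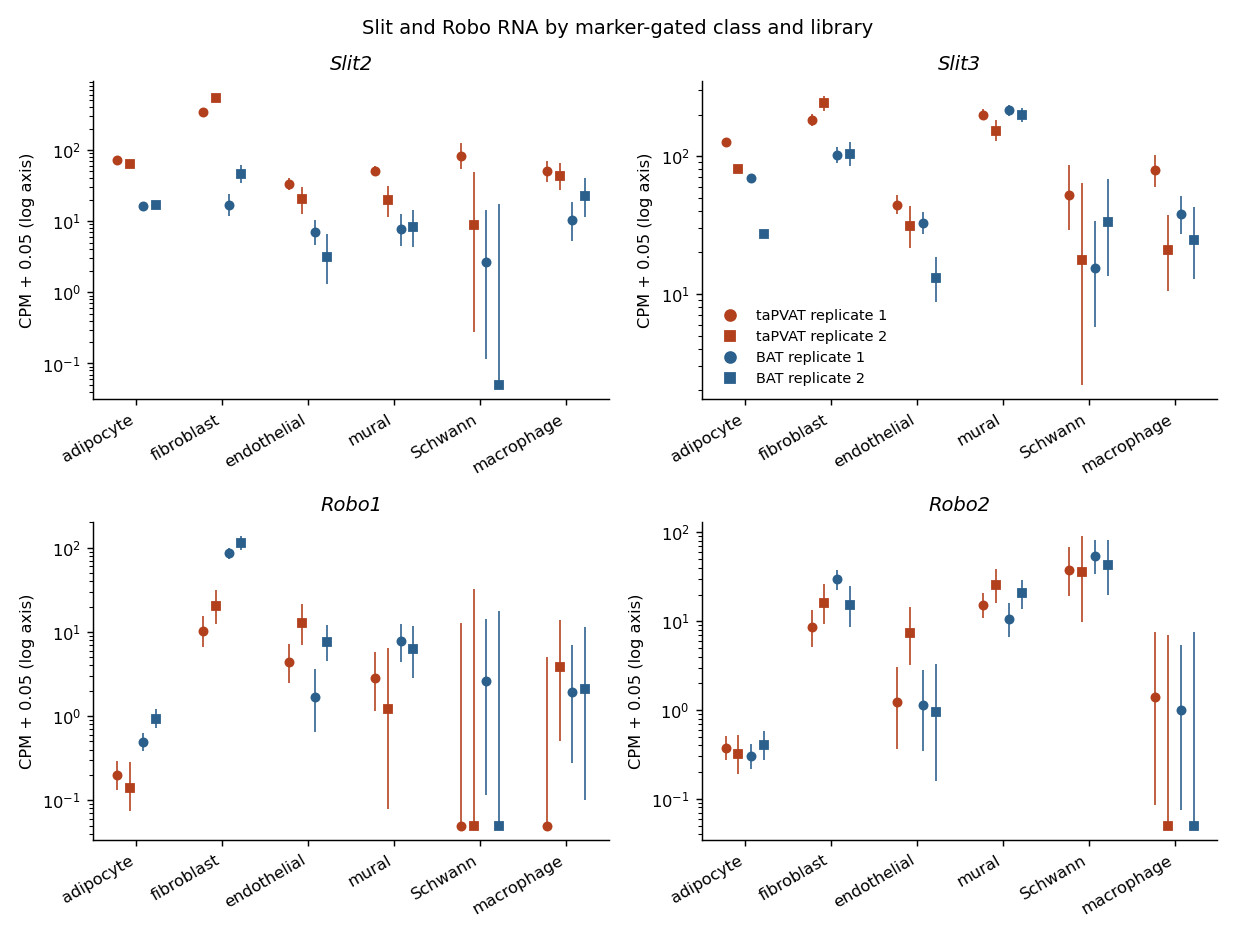
Levels of Slit2, Slit3, Robo1 and Robo2 in 6 marker-gated classes, in CPM on a log axis after adding 0.05; points are libraries and bars are exact Poisson 95% intervals, which cover counting error only. Slit2 peaks in taPVAT fibroblasts at 339 and 535 CPM, Robo1 in BAT fibroblasts at 85.6 and 114 CPM, Slit3 is high in mural and fibroblast nuclei, and Robo2 in Schwann nuclei.

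Between the tissues, the log2 fold change of Slit2, taPVAT over BAT, was 3.76 ± 0.56 (SE) in fibroblasts, 2.07 ± 0.26 in adipocytes and 2.24 ± 0.23 in all nuclei. These 3 values describe the difference that the family was chosen for. In edgeR Slit2 was the 1 of 4 tested members called in fibroblasts at an adjusted p under 0.05 (adjusted p = 0.0467), where 0.249% of 9645 genes were called, 0.228% higher and 0.0207% lower in taPVAT. That call is not independent evidence. The log2 fold changes of fibroblasts and adipocytes differed by 1.79 ± 0.45, and the interaction term did not pass (edgeR adjusted p = 0.765). That term contains the adipocyte difference by which the family was chosen, so it is given as a description. Of 15284 genes 0.0393% passed the same test, 0.0327% upward and 0.00654% downward. Markers of other cell types moved with the tissue too, and their part in the difference was not tested. In fibroblasts 4 of 9 other lists did not overlap: summed mesothelial markers were 86.5 and 161 CPM in taPVAT and 0 in both BAT libraries, and lymphatic endothelial markers 35.7 and 22.3 against 2.00 and 4.04 CPM. B lymphocyte markers, at 55.8 and 98.2 against 104 and 167 CPM, and neuron markers, at 33.0 and 35.4 against 78.1 and 43.4 CPM, were higher in BAT. In adipocytes mesothelial markers, at 4.81 and 2.55 against 0.70 and 0.64 CPM, and lymphatic endothelial markers, at 16.8 and 7.77 against 1.83 and 3.82 CPM, were higher in taPVAT. Endothelial and macrophage markers were higher there by less, and B lymphocyte markers lower. Fibroblasts without any mesothelial marker, 795 and 342 nuclei in taPVAT, held 327 and 529 CPM of Slit2. Over these nuclei the log2 fold change was 3.76 ± 0.57, and the call was lost (edgeR adjusted p = 0.092). The part of fibroblasts with a Pi16 or Dpp4 UMI, markers of progenitor-like fibroblasts, made up 411 of 926 and 169 of 424 nuclei in taPVAT, and 103 of 732 and 62 of 448 in BAT. Slit2 was high in taPVAT on both sides of that split, at 284 and 588 CPM with these markers and 389 and 500 CPM without them, against 15.9 to 47.4 CPM in the 4 BAT groups.

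Adipocytes, the most numerous nuclei, held most Slit2 molecules, at about their share of all RNA. They held 60.5% and 61.5% of the Slit2 UMIs of the taPVAT libraries and 72.7% and 71.3% of those of the BAT libraries, and 65.0%, 71.7%, 73.3% and 68.3% of all UMIs of these 4 libraries. Fibroblasts held 6.29% and 11.6% of the Slit2 UMIs in taPVAT and 1.33% and 3.16% in BAT, against 1.09% to 1.6% of all UMIs. Another 21.3% to 27.6% lay in nuclei that met no gate. A Slit2 UMI was seen in 15.7% and 17.1% of taPVAT adipocytes and in 4.71% and 3.77% of BAT adipocytes, at median depths of 3119, 4863, 3992 and 2826 UMIs. After each nucleus was thinned to 1000 UMIs, which left out 33 to 660 adipocytes per library, the shares were 6.14% and 5.92% in taPVAT and 1.27% and 1.39% in BAT. Thinned fibroblasts showed Slit2 in 24.7% and 32.1% of taPVAT nuclei and in 1.26% and 1.63% of BAT nuclei. Before thinning, 160 of 28276 and 85 of 8501 taPVAT adipocytes had 5 or more Slit2 UMIs, against 34 of 25163 and 9 of 19360 in BAT. Whether these counts exceed what depth and the mean level give was not tested. Adipocytes were also split by a UMI of Ucp1, the heat-producing uncoupling protein. Slit2 measured 71.4 and 57.7 CPM with Ucp1 and 79.8 and 90.2 CPM without it in taPVAT, and 15.7 to 19.2 CPM in the 4 BAT groups. These are parts of the adipocyte values the family was chosen by, so they are a description.

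In endothelial, mural, macrophage and Schwann nuclei the log2 fold change of Slit2 over adipocytes was below 0. In Schwann nuclei it was -0.94 ± 0.33, from 24, 1, 1 and 0 UMIs. Slit2 there stood at 115% of the adipocyte level in taPVAT replicate 1. In endothelial nuclei it measured 33.3 and 20.2 CPM in taPVAT and 7.07 and 3.13 CPM in BAT, which is 18.7% to 46.2% of the adipocyte level, below the median adipocyte marker in each library. The log2 fold change of endothelial nuclei over adipocytes was -1.65 ± 0.19. After thinning, a Slit2 UMI was seen in 2.96% and 0.628% of taPVAT endothelial nuclei and in 0.445% and 0.259% of those of BAT, with median depths of 1452 to 1835 UMIs before thinning. The share differed by class, and what part of it is background RNA was not tested: thinned macrophages, with median depths of 1737 to 2079 UMIs, showed Slit2 in 5.74% and 1.87% of taPVAT nuclei and in 0.323% and 3.01% of BAT nuclei, from 1 to 14 nuclei a library. B lymphocyte nuclei, with 28, 4, 7 and 2 Slit2 UMIs, stood at 78.8% to 131% of the adipocyte level. The adipocyte level of Slit2 was therefore not above that of every other class. Mural nuclei had 50.8 and 19.7 CPM in taPVAT and 7.69 and 8.21 CPM in BAT, and macrophages 50.3 and 43.6 against 10.4 and 22.5 CPM. In mural nuclei the log2 fold change over adipocytes was -1.13 ± 0.19, and Slit2 there stood at 31.0% to 70.5% of the adipocyte level, with the median adipocyte marker at 54.9% to 69.4%. In macrophages it was -0.63 ± 0.21, and Slit2 stood at 64.6% to 69.7% of the adipocyte level in 3 libraries and at 134% in BAT replicate 2. In endothelial and mural nuclei 14.2% of 10404 and 15.8% of 9519 genes were higher in taPVAT without overlap, as Slit2 was, and in macrophages 10.4% of 7529 were. Mesothelial nuclei, only 23 and 7 in taPVAT and none gated in BAT, are described in the closing section.

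Slit3, the other ligand with ample RNA, was highest in mural and fibroblast nuclei. Mural nuclei measured 199 and 153 CPM in taPVAT and 215 and 198 CPM in BAT, so the tissues overlapped. Fibroblasts measured 182 and 242 CPM in taPVAT and 102 and 104 CPM in BAT. Adipocytes measured 126 and 80.2 CPM against 69.0 and 27.2 CPM. Both were higher in taPVAT without overlap, as Slit2 was. So were 15.1% of 9548 genes in fibroblasts and 9.58% of 15508 genes in adipocytes. Within libraries, mural nuclei were above fibroblasts in both BAT libraries and in taPVAT replicate 1, and below them in taPVAT replicate 2. The order of these classes was therefore the same in both BAT libraries but not across taPVAT. The 2 classes were not tested against each other. Against adipocytes, Slit3 was higher in mural nuclei by a log2 fold change of 1.38 ± 0.31 (edgeR adjusted p = 0.00575), where 39.6% of 13701 genes were called, 18.7% higher and 21.0% lower. It was higher in fibroblasts by 0.90 ± 0.23 (edgeR adjusted p = 0.0107), where 43.3% of 13854 genes were called and 22.3% were higher. That call was lost when BAT replicate 2 was left out, with a log2 fold change of 0.64 and an adjusted p of 0.0615, and with classes assigned by profile likelihood, with 0.46 and 0.123.

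Within mural nuclei Slit3 followed the smooth muscle markers. In nuclei with more smooth muscle than pericyte markers it measured 603 and 946 CPM in taPVAT (104 and 14 nuclei) and 641 and 634 CPM in BAT (133 nuclei in each). In nuclei with more pericyte markers it measured 135 and 119 CPM in taPVAT (730 and 276 nuclei) and 85.0 and 65.9 CPM in BAT (414 and 401 nuclei). The smooth muscle side was higher in 4 of 4 libraries, and every value on it lay above every value on the pericyte side. This split was not tested across genes.

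**Figure D2:**
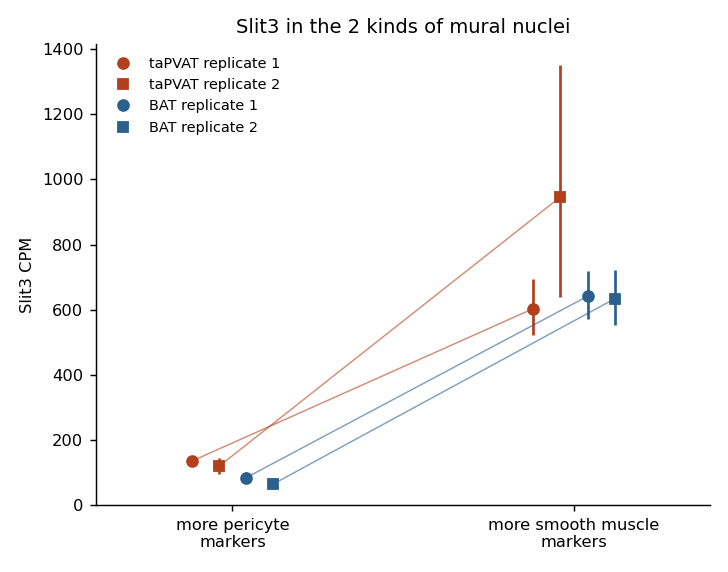
Slit3 level in CPM in mural nuclei with more pericyte markers and with more smooth muscle markers; each line joins the 2 groups of 1 library and bars are exact Poisson 95% intervals, which cover counting error only. The 4 smooth muscle values, 603 to 946 CPM, all lie above the 4 pericyte values, 65.9 to 135 CPM.

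Slit3 was not called by edgeR between the tissues in any class in the fit without a replicate term. The log2 fold change, taPVAT over BAT, was 0.99 ± 0.33 in fibroblasts (edgeR adjusted p = 0.672), 1.14 ± 0.47 in adipocytes (adjusted p = 1.0) and -0.26 ± 0.27 in mural nuclei (adjusted p = 1.0). In adipocytes the value rested on BAT replicate 2, which at 27.2 CPM was well below BAT replicate 1: it was 0.64 without that library and 1.86 without BAT replicate 1, where edgeR called it (adjusted p = 0.0208). Slit3 in macrophages, 78.8 and 20.9 CPM in taPVAT and 38.0 and 24.6 CPM in BAT, was lower than in adipocytes by a log2 fold change of -1.11 ± 0.21 (edgeR adjusted p = 0.000265), where 35.1% of 13326 genes were called and 16.9% were lower. Its 26.0% to 90.3% of the adipocyte level there stands beside 50.8% to 76.2% for the median adipocyte marker in macrophages. Endothelial nuclei had 44.4 and 31.2 CPM in taPVAT and 32.6 and 12.98 CPM in BAT, and were lower than adipocytes by -1.46 ± 0.14 (edgeR adjusted p = 5.22e-05), where 59.2% of 13873 genes were called and 31.3% were lower. Schwann nuclei had 51.9 and 17.7 CPM against 15.5 and 33.3 CPM, from 15, 2, 6 and 7 UMIs. They were lower than adipocytes by -1.50 ± 0.28 (edgeR adjusted p = 9.42e-07), where 11.1% of 12869 genes were lower. BAT replicate 2 went the other way, with Schwann nuclei at 122% of the adipocyte level. The p of the Schwann fit leans on the spread shared across genes.

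Slit1, a ligand known mostly from the nervous system, was close to absent. All kept nuclei held 34 and 14 Slit1 UMIs in taPVAT and 26 and 23 in BAT, or 0.166 to 0.253 CPM. No class held more than 20 of them in a library.

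Robo1 was the receptor with the clearest pattern between the tissues. It ran opposite to Slit2 in fibroblasts, adipocytes and mural nuclei, but not in endothelial nuclei. Mural nuclei held only 7 and 1 Robo1 UMIs in taPVAT and 16 and 9 in BAT. Summed fibroblast markers were present at 60.4 to 83.1 CPM in adipocytes and 344 to 491 CPM in mural nuclei. These directions may therefore not be independent of the fibroblast values, and how much of them is fibroblast RNA was not tested. In fibroblasts Robo1 measured 10.3 and 20.2 CPM (23 and 20 UMIs) in taPVAT and 85.6 and 114 CPM (171 and 113 UMIs) in BAT. Each BAT library was above both taPVAT libraries, as in 10.5% of 9548 genes. The log2 fold change, taPVAT over BAT, was -2.82 ± 0.45 (SE) with an unadjusted p of 0.000158 and an edgeR adjusted p of 0.0544, so Robo1 missed the threshold. DESeq2 called it (log2 fold change -2.81, adjusted p = 0.000173) among 0.632% of the genes tested. It was called in 9 of 16 alternatives, with an adjusted p of up to 0.396 in the others, such as 1 marker more, at least 1000 genes, RLE scaling or no mesothelial marker. The 9 include each library left out in turn, with log2 fold changes of -3.32 to -2.32, where the lone library of a tissue is assumed to vary like the other tissue's. Among fibroblasts without Pi16 and Dpp4, Robo1 measured 12.6 and 32.3 CPM in taPVAT and 97.3 and 125 CPM in BAT. Among those with either marker the values were 7.58 and 2.50 CPM against 19.99 and 54.6 CPM, from 1 to 8 UMIs each. In fibroblasts without mesothelial markers Robo1 measured 10.3 and 16.6 CPM in taPVAT.

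**Figure D3:**
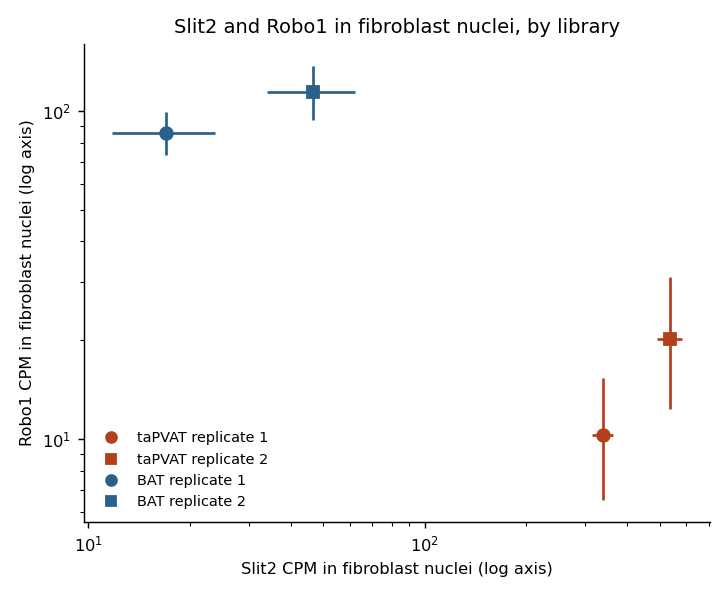
Slit2 against Robo1 level in fibroblast nuclei of each library, both in CPM on log axes; bars are exact Poisson 95% intervals, which cover counting error only. The taPVAT libraries sit at 339 and 535 CPM of Slit2 with 10.3 and 20.2 CPM of Robo1, and the BAT libraries at 17.0 and 46.5 CPM of Slit2 with 85.6 and 114 CPM of Robo1.

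Among the classes Robo1 was highest in fibroblasts in every library, though within counting error in taPVAT. Poisson 95% intervals there were 6.50 to 15.4 and 12.4 to 31.3 CPM in fibroblasts, and 2.45 to 7.23 and 7.02 to 21.5 CPM in endothelial nuclei. The 0 UMIs of taPVAT Schwann nuclei allow up to 10.39 and 26.55 CPM. Robo1 was higher in fibroblasts than in adipocytes by a log2 fold change of 6.90 ± 0.29 (edgeR adjusted p = 2.9e-07), in 4 of 4 libraries. Adipocytes had 0.148 and 0.0904 CPM in taPVAT and 0.445 and 0.886 CPM in BAT. After thinning to 1000 UMIs, which left out 6 to 70 fibroblasts per library, 8.43% and 10.7% of BAT fibroblasts and 0.701% and 0.957% of taPVAT fibroblasts had a Robo1 UMI; before thinning the shares were 15.0% and 16.5% in BAT and 1.73% and 2.83% in taPVAT. At most 0.0887% of thinned adipocytes had one in any library, and 0 of 55 to 217 thinned T or NK lymphocyte nuclei did, with Wilson 95% upper limits of 1.74% to 6.53%. Fibroblasts had median depths of 1836 to 2109 UMIs, and these lymphocytes 1443 to 1977 UMIs. Fibroblasts held 21.9% and 36.4% of all Robo1 UMIs in taPVAT and 37.1% and 28.7% in BAT, and 14.6% to 43.9% lay in nuclei that met no gate.

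Endothelial nuclei also held Robo1, at 4.38 and 12.8 CPM in taPVAT and 1.63 and 7.61 CPM in BAT. These 6 to 17 UMIs per library overlapped between the tissues, with a log2 fold change of 0.75 ± 0.89 (edgeR adjusted p = 1.0). They were above the adipocyte level by a log2 fold change of 3.77 ± 0.70 (edgeR adjusted p = 0.00189), where 28.0% of 13873 genes were higher. Lymphatic endothelial nuclei, 12 to 249 per library, held 0 Robo1 UMIs in each library, which in the deepest of them, taPVAT replicate 1, allows up to 3.66 CPM. Mural nuclei held 2.76 and 1.16 CPM in taPVAT and 7.69 and 6.16 CPM in BAT, from 1 to 16 UMIs, and were above adipocytes by 3.55 ± 0.46 (edgeR adjusted p = 0.00018). Summed fibroblast markers were also higher in endothelial nuclei (307 to 410 CPM) and mural nuclei (344 to 491 CPM) than in adipocytes (60.4 to 83.1 CPM). The part of fibroblast RNA in these 2 differences was not tested. In all nuclei Robo1 measured 0.672 and 0.891 CPM in taPVAT and 2.95 and 4.34 CPM in BAT, lower in taPVAT without overlap like 9.71% of genes. The log2 fold change was -2.22 ± 0.39 (edgeR adjusted p = 0.538). In adipocytes it was -2.39 ± 0.61 (edgeR adjusted p = 1.0), again without overlap, like 10.2% of genes. In macrophages Robo1 had 0 to 2 UMIs per library, and the log2 fold change over adipocytes of 2.08 ± 0.97 did not pass (edgeR adjusted p = 0.103; 18.1% of genes were higher).

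**Figure D4:**
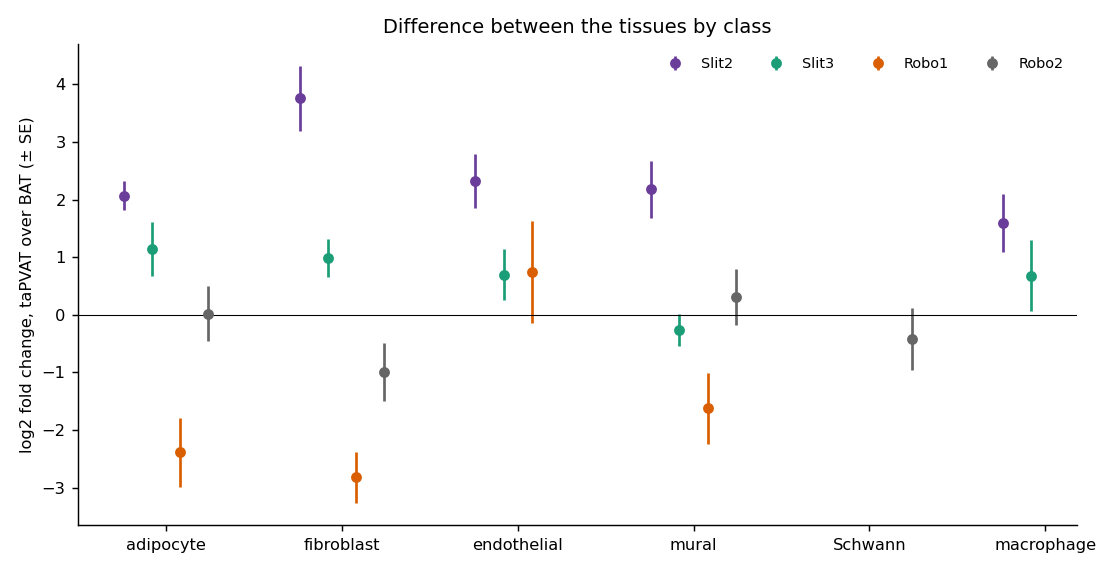
Log2 fold change of taPVAT over BAT by class from edgeR, with SE as bars, for Slit2, Slit3, Robo1 and Robo2 where the gene passed the filter on low counts. Slit2 lies above 0 in each of 5 classes, and Robo1 lies at -2.82 in fibroblasts and -2.39 in adipocytes. The Slit2 values are not independent of each other, as adipocyte RNA was present in every class. Fibroblast markers were present in adipocyte and mural nuclei, and their part in the Robo1 values there was not tested.

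Robo2 had another distribution, with its highest level in Schwann cells, the glia of peripheral nerve. Schwann nuclei measured 38.1 and 35.4 CPM in taPVAT and 54.3 and 42.9 CPM in BAT, from 11, 4, 21 and 9 UMIs. Mural nuclei measured 15.4 and 25.5 CPM in taPVAT and 10.6 and 20.5 CPM in BAT, and fibroblasts 8.47 and 16.2 CPM against 29.6 and 15.2 CPM. The lowest Schwann value lay above the highest mural and fibroblast values, while the mural and fibroblast ranges overlapped. Adipocytes had 0.253 to 0.355 CPM in every library. Robo2 was above adipocytes by a log2 fold change of 6.99 ± 0.53 in Schwann nuclei (edgeR adjusted p = 1.6e-38), where 22.2% of 12869 genes were called and 11.2% were higher. It was above adipocytes by 5.65 ± 0.33 in mural nuclei (adjusted p = 6e-07) and by 5.52 ± 0.43 in fibroblasts (adjusted p = 1.03e-05). The p of the Schwann fit leans on the spread shared across genes, so its size does not rank Schwann nuclei above these classes. Endothelial nuclei had 0.895 to 7.34 CPM from 2 to 8 UMIs and were above adipocytes by 2.40 ± 0.63 (adjusted p = 0.0107), and macrophages had 0 to 1 UMI in each library.

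Robo2 did not pass the test between the tissues in any class where it was tested. The log2 fold changes, taPVAT over BAT, were -0.42 ± 0.54 in Schwann nuclei, 0.31 ± 0.49 in mural nuclei, -0.99 ± 0.50 in fibroblasts and 0.02 ± 0.48 in adipocytes, with edgeR adjusted p of 0.999 to 1.0. In Schwann nuclei both BAT libraries lay above both taPVAT libraries, as in 13.9% of the 4262 genes with at least 40 UMIs in that class.

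Robo3 and Robo4 were at or near the limit of detection. Robo3 had 2 to 4 UMIs in all kept nuclei of a library. Robo4 had 10 and 1 UMIs in taPVAT and 8 and 4 in BAT, of which endothelial nuclei held 2, 1, 4 and 0. In endothelial nuclei that is 0 to 1.09 CPM, and the 0 of BAT replicate 2 allows up to 1.34 CPM. The 2 genes overlap in the RefSeq annotation on opposite strands, and the split of UMIs between them was not tested. Neither passed the filter on low counts in any comparison, and at this depth no difference could be detected.

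Counted by comparison, few tests between the tissues were passed. In all nuclei and in adipocytes 0 of the 4 tested members other than Slit2 were called by edgeR, and 0.0% of 17047 and of 15696 genes were called, although the unadjusted p was under 0.05 for 503 and 338 genes. DESeq2 called 121 genes (0.71%) in all nuclei, Robo1 among them, and 61 (0.389%) in adipocytes. The counts were 0 of 3 members in endothelial nuclei (0.0% of 10742 genes), 0 of 4 in mural (0.0103% of 9716), 0 of 1 in Schwann (0.0% of 4478) and 0 of 2 in macrophage nuclei (0.0% of 7481). Slit2 was counted among the members in these 4 classes where it was tested. The unadjusted p was under 0.05 for 227, 330, 124 and 74 of their genes, and DESeq2 called 7 (0.0652%), 18 (0.185%), 0 and 1 (0.0134%). Among members other than Slit2, Robo1 had unadjusted p of 0.00186 in all nuclei, 0.00817 in adipocytes and 0.0282 in mural nuclei, lower in taPVAT each time, and Slit3 had 0.0159 in fibroblasts. Members were tested only where they passed the filter on low counts, so the counts do not cover all 7.

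Slit2 and Robo1 were also counted in the same fibroblasts. A Slit2 UMI was found in 341 and 187 of the taPVAT fibroblasts and in 25 and 18 of those of BAT. A Robo1 UMI was found in 16 and 12 against 110 and 74, and both in 7 and 4 against 5 and 2. So 7 of 16 and 4 of 12 Robo1 nuclei in taPVAT also held Slit2, where 36.8% and 44.1% of all fibroblasts did. In BAT it was 5 of 110 and 2 of 74, where 3.42% and 4.02% of all fibroblasts held Slit2, so joint detection was near what the detection of Slit2 alone gives. Counts per nucleus are low, so a nucleus without a UMI of a gene may still express it.

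Other genes of the pathway were taken from a list of 24 intracellular effectors and a list of 22 surface partners and Robo regulators. Between the tissues edgeR called 0 of the tested genes of either list in any of the 6 classes or in all nuclei, and the medians were near those of all genes: in fibroblasts 0.01 for 21 effectors and -0.01 for 18 partners, against -0.02 for all 9645 genes. The smallest p-values among effectors in fibroblasts belonged to Srgap3 and Srgap1, which encode adaptors that bind Robo. Srgap3 measured 40.6 and 37.5 CPM in taPVAT against 14.0 and 10.1 CPM in BAT (log2 fold change 1.63 ± 0.38, edgeR adjusted p = 0.24). Srgap1 measured 65.6 and 113 CPM against 27.1 and 36.4 CPM (1.45 ± 0.41, adjusted p = 0.405). Evl and Rhoa had the smallest p-values among effectors lower in taPVAT, at -0.66 ± 0.48 and -0.25 ± 0.37.

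Among partners in fibroblasts, Nell1, which encodes a ligand-like protein, measured 13.4 and 13.2 CPM in taPVAT against 2.50 and 1.01 CPM in BAT (log2 fold change 2.69 ± 0.62, edgeR adjusted p = 0.232). Ntn1, the guidance cue netrin, measured 177 and 160 CPM against 77.6 and 62.6 CPM (1.22 ± 0.32, adjusted p = 0.32). Neither overlapped between the tissues, as in 15.1% of 9548 genes that were higher in taPVAT fibroblasts without overlap. Hs6st2 and Sdc4 led the other direction at -0.34 ± 0.44 and -0.35 ± 0.48. In adipocytes the leading effectors were Srgap2 (0.54 ± 0.26) and Vasp (0.63 ± 0.31) upward and Pak1 (-0.29 ± 0.56) and Pak2 (-0.15 ± 0.36) downward. The leading partners in adipocytes were Ntn1 (1.05 ± 0.49), Hs6st2 (0.45 ± 0.35), Hs6st1 (-0.23 ± 0.27) and Flrt3 (-0.39 ± 0.51), all 8 with an edgeR adjusted p of 1.0.

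Between classes genes of the lists differed. Effectors higher than in adipocytes were 12 of 22 in mural, 8 of 22 in macrophage and 7 of 22 in Schwann nuclei, and 4, 2 and 1 were lower. Of all genes 18.7%, 18.1% and 11.2% were higher there and 21.0%, 16.9% and 11.1% lower. A surplus of higher effectors over adipocytes was therefore not particular to a single class. Of 22 effectors tested in fibroblasts against adipocytes, 11 were higher and 2 lower, where 22.3% and 21.1% of all genes were. Srgap1 (log2 fold change 5.16 ± 0.32, edgeR adjusted p = 2.625e-06) and Srgap3 (2.99 ± 0.29, adjusted p = 5.1e-05) were among the higher, and Sos1 and Sos2, exchange factors for Ras and Rac, were lower at -0.51 ± 0.13 and -0.40 ± 0.14. Of 21 partners, 10 were higher and 3 lower. The higher included Ntn1 (6.15 ± 0.22), the heparan sulfate carriers Sdc2 (3.54 ± 0.16) and Gpc1 (2.89 ± 0.42), and the sulfotransferase Hs6st2 (4.67 ± 0.29). The heparan sulfate carrier Sdc4 and the sulfotransferase Hs2st1 went the other way, with a lower CPM in fibroblasts than in adipocytes in each library. In endothelial nuclei, where 28.0% of all genes were higher and 31.3% lower than in adipocytes, 13 of 22 effectors were higher and 4 lower, with Srgap1 at 5.94 ± 0.23 and Evl at 5.73 ± 0.40, while 6 of 22 partners were higher and 6 lower, near the shares over all genes.

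Genes with the most similar pattern were ranked by Pearson correlation of log2(CPM + 1) over the 24 sums of 6 classes in 4 libraries, among 11557 genes with at least 500 UMIs. The sums of a library share its depth and its background RNA, so the values describe these sums. Slit2 was nearest to Foxp2 (r = 0.853), AABR07029470.1, Ttc39c, Oaf and Atp8b5p (r = 0.756). Slit3 was nearest to Lpp (r = 0.913), Zfp385d, Sema5a, Meis2 and Col4a5 (r = 0.836). Robo1 was nearest to Tbc1d8b (r = 0.89), Ppl, Srpx, Arfgap3 and Medag (r = 0.852). Robo2, with 383 UMIs in these sums, was nearest to Kirrel1 (r = 0.948), Trabd2b, Gpm6b, Dlgap1 and Col5a2 (r = 0.921). Robo4 had 11 UMIs, too few for a pattern, and its nearest genes were Map4k2, Sncaip, Tnfsf10, Gimap5 and Vwf (r = 0.719 to 0.689).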

How the data were processed

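The deposited files hold raw UMI counts per gene and barcode, made with Cell Ranger 7.1.0 per the file headers, on Rnor_6.0 per the submitters' processing notes. The sources used here do not give the annotation release, the handling of introns or the rule that left out barcodes under 500 UMIs, so overlapping genes are uncertain. The members, the gene lists and the markers were chosen with earlier results of these data known. Nuclei with at least 500 genes were kept. A non-adipocyte class needed 3 distinct markers of its list, a list level of at least 10 times the library mean, and at least 2 times as many markers as any other list. An adipocyte needed 3 adipocyte markers and at most 1 marker of any other list. Markers whose share of UMIs was under 4 times as high in nuclei with at least 4 other markers of their list as in nuclei with at most 1 were not used (10), and 5 were not in the files. These levels were set on the data. No doublet caller was run: nuclei that reached a gate without the lead over other lists, 1.16% to 1.45% per library, were left out as mixed. UMIs were summed per library and class, for classes with at least 20 nuclei in each library.

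Sums were compared by edgeR's quasi-likelihood test (version 4.0.16 under R 4.3.3; TMM, filterByExpr, Benjamini-Hochberg over all genes tested, threshold 0.05); class comparisons and the interaction had the library as a term. SE is the log2 fold change divided by the root of F. The test was run on simulated counts with a dispersion of 0.05 for every gene and the same mean profile for every library. For the fibroblast tissue comparison (9645 genes), 88% of genes changed by 2 and 95% of those changed by 3 on the log2 scale were called. For the interaction (15284 genes), 41% and 58% were. The spread between the real libraries was not simulated, so these shares do not give the power of the test in these data. Alternatives were DESeq2 1.42.0, other scaling and filters, other gates, a fit with the replicate number as a block, and leaving out each library; 3 were added after seeing the data (a list level of 5 times, adipocytes with no other marker, fibroblasts with no mesothelial marker). Only counting error enters the Poisson and Wilson 95% intervals and the limit of 3 counts that a 0 allows. Named genes were the members, the pathway genes called between the tissues in adipocytes or fibroblasts or else the 2 with the smallest p in each direction, and the 5 most similar genes. Pathway genes named from class comparisons were chosen after their values were seen. Sequences are from RefSeq tables of GRCr8, which hold no promoter entry matched to Slit1 or Slit2.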

Additional observations from a re-analysis of the deposited data

Results flagged for a closer look

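Slit2 RNA appeared in nuclei that the comparisons above do not use. Mesothelial nuclei, the lining cells of serous surfaces, were gated in taPVAT only, 23 and 7 of them. Slit2 there measured 167.6 CPM in replicate 1 (14 UMIs) and 308.4 CPM in replicate 2 (5 UMIs), in each library with a Poisson interval above that of its adipocytes. The median adipocyte marker stood at 65.1% and 13.4% of its adipocyte level in these nuclei. They also held a median of 1 fibroblast marker, with summed fibroblast markers of 455 and 1666 CPM, and fibroblasts held 339 and 535 CPM of Slit2; the part of either in this signal was not tested. No mesothelial nucleus was gated in BAT, so the tissues cannot be compared.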

How the results depend on the processing

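With 2 libraries a tissue, an exact permutation test cannot give a p below 0.333, and all tests lean on the spread shared across genes. Without a library, the lone library of its tissue is assumed to vary like the others. Calls of Slit2 between the tissues, here and with a replicate block below, are not independent evidence in any class. Counts of called members (Slit2 not counted in all nuclei and adipocytes) changed as follows. In fibroblasts between the tissues, where 1 was called (Slit2, adjusted p = 0.0467), 0 were called with 1 marker more, a list level of 5 times, at least 1000 genes, at most 10% mitochondrial UMIs, no mesothelial marker (Slit2 3.76, adjusted p = 0.092) or RLE scaling; 2 were called with 1 marker fewer, profile likelihood, no gene filter and DESeq2, and 2 without each library in turn. edgeR called 24 genes there and DESeq2 61. In all nuclei DESeq2 called 1 and leaving out a library 0 to 1 (Robo1 without BAT replicate 1, adjusted p = 0.041). In adipocytes leaving out a library gave 0 to 1. In endothelial and mural nuclei no gene filter gave 1 each and leaving out a library 0 to 1, in both classes Slit2 without taPVAT replicate 2 (log2 fold changes 2.60 and 2.62); in Schwann nuclei no gene filter gave 1. For macrophages over adipocytes Slit3 was called in 15 of 15 alternatives; the count of 2 also holds Slit2, for which no test is claimed, and was 1 with a list level of 5 times, adipocytes with no other marker, at least 1000 genes, at most 10% mitochondrial UMIs and DESeq2, and 1 to 2 without a library. The Slit2 interaction (1.79), which contains values the family was chosen by and is no independent test, passed at 1.58 with at most 10% mitochondrial UMIs (adjusted p = 0.0222) and at 1.79 with no gene filter (adjusted p = 0.00136); it was 1.08 to 2.47 without a library, passing when taPVAT replicate 1 (2.13) or taPVAT replicate 2 (1.39) was the one left out. The cause of these changes was not tested.

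The labels do not say that a replicate number marks a shared rat or batch. Deviations of same-numbered libraries correlated at 0.30 to 0.66 across genes. A replicate block in edgeR gave 2 called members in all nuclei (0.921% of genes called) and 2 in adipocytes (2.04%), each time Slit3 (adjusted p = 0.0414 and 0.00123) and Robo1, 3 in fibroblasts (3.76%; Slit2, Slit3 at adjusted p = 0.0155, and Robo1), and Slit2 as the 1 in endothelial (1.94%) and the 1 in mural nuclei (2.62%), and none in Schwann (0.581%) and macrophage nuclei (0.0936%).

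No called difference of a member turned its direction in the alternatives run. Among those not called, Slit1 ranged from -0.23 to 0.44 in all nuclei and from -0.67 to 0.87 in adipocytes, and the interaction from -0.98 to 0.39 for Slit3 and from -1.26 to 0.30 for Robo1. Robo2 in all nuclei became -0.0322 with at least 1000 genes, -0.0693 without the top 5% of UMIs, -0.0324 with at most 10% mitochondrial UMIs and -0.19 to 0.24 without a library. Robo2 in adipocytes became -0.30, -0.11, -0.0033 and -0.0083 with at least 1000 genes, at most 10% mitochondrial UMIs, RLE scaling and DESeq2, and -0.30 to 0.31 without a library. Without a library Robo1 in endothelial nuclei ranged from -0.14 to 2.20, Robo2 in mural nuclei from -0.16 to 0.90 and Slit3 in macrophages from -0.70 to 1.32. Robo2 in Schwann nuclei became 0.17 by profile likelihood. Of 571 alternatives for 40 log2 fold changes, 500 kept the direction and the side of the threshold. Slit1 and the interaction are not in this tally. Schwann nuclei were not fitted with at least 1000 genes or at most 10% mitochondrial UMIs, which left under 20 nuclei in a library.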
